A study of Mus musculus with 16 samples.

Results

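Gm26917 and Gm42418 are neighbouring loci of mouse chromosome 17 that the annotation lists as long intergenic noncoding RNAs. Gm42418 holds the later part of an 18S ribosomal RNA, and Gm26917 lies just before that RNA. They are described here together with n-R5-8s1, an annotated copy of the small ribosomal RNA that pairs with 28S, as 3 of the 53379 genes in the deposited table. All 3 were found by matching their gene identifiers to the mouse annotation. Gm26917 and Gm42418 were picked on their share of the UMIs (unique molecular identifiers, which mark single RNA molecules) in the UV IP libraries. Their values in the UV IP, and in the UV IP against the UV input, are therefore a description without a test. Earlier results of these data had named n-R5-8s1 for its difference between crosslinkers, so all its values are also a description.

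The libraries came from male mouse embryonic stem cells (mESC), which were grown on gelatin with LIF and the inhibitors PD0325901 and CHIR99021, conditions that keep them pluripotent. Proteins and RNA were crosslinked either with UV light, which joins a protein to RNA it touches, or with formaldehyde, which also joins proteins to one another. These arms are called UV-RIP and fRIP. Each of the 8 culture plates, 4 per crosslinker, gave a Sox2 antibody immunoprecipitate (IP) and an input taken from the same lysate before the antibody was added. This made 16 libraries in 4 groups, fRIP IP, fRIP input, UV IP and UV input, each with replicates numbered 3 to 6. No IP with a control antibody was analysed here, so an IP value can be set only against its input. Ribosomal RNA was depleted with the RiboErase reagents before the cDNA was made.

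Ribosomal RNA is made by RNA polymerase I as a long precursor in the nucleolus. The precursor starts with an external transcribed spacer, followed by 18S, an internal spacer, a short RNA, another internal spacer and 28S. The spacers are cut out and degraded while small nucleolar RNAs and their proteins fold and modify the rest. The 18S becomes the RNA of the small ribosomal subunit, and the short RNA and 28S belong to the large subunit. The repeated genes for this precursor are assembled only in part in most genome builds, so only a few copies are present for reads to map to.

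On GRCm38, Gm26917 (ENSMUSG00000097971.3) lies on the plus strand at chr17:39843013-39846341 and is 3329 bases long. Gm42418 (ENSMUSG00000098178.1) follows on the same strand at chr17:39846958-39848788, with 1831 bases and a gap of 616 bases between the loci. A gene annotated as ribosomal RNA, CT010467.1 (ENSMUSG00000106106.2), lies on the minus strand at chr17:39846353-39848827 and covers all 1831 bases of Gm42418. AY036118, a further minus-strand gene inside the same span, overlaps 923 bases of Gm42418. RefSeq gives Gm42418 as a synonym of the 18S-related locus Rn18s-rs5.

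The sequences show how the loci sit on the precursor. They are printed on the plus strand, 5′ to 3′, from the GENCODE vM21 transcripts of GRCm38, and the capitals mark the first and the last 9 bases of 18S. The opening lines give the end of Gm26917, at chr17:39846222-39846341, and the start of 18S, at chr17:39846353-39846412, which begins 11 bases after Gm26917 ends. The remaining lines give the first bases of Gm42418, at chr17:39846958-39847017, and the stretch of Gm42418 in which 18S ends and the spacer begins, at chr17:39848102-39848301.
Gm26917 end: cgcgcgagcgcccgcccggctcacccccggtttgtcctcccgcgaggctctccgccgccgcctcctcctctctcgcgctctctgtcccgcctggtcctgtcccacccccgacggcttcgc
18S start: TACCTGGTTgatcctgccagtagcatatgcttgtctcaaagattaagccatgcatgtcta
Gm42418 start: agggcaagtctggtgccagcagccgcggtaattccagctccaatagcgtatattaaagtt
Gm42418 across the 18S end: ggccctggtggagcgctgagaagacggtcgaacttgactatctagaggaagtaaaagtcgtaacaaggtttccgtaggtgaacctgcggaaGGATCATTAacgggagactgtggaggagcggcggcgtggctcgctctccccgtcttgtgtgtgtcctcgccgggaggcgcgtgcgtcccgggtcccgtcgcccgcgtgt

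The motif TACCTGGTT stands at base 1 and the motif GGATCATTA at bases 1841 to 1849 of a 1849-base transcript of CT010467.1 read on the plus strand. Both were searched on both strands, and they do not overlap each other. Of 46287 transcript windows of 1831 bases, 1.20% held TACCTGGTT and 0.709% held GGATCATTA. Gm26917 holds 0 bases of 18S and lies where the external transcribed spacer lies in the precursor. Gm42418 begins at base 606 of 18S, so that 605 bases of 18S precede it. Of its own bases, 1244 (67.9%) are 18S, up to GGATCATTA at its bases 1236 to 1244, and the following 587 lie where the internal spacer lies.

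**Figure D1:**
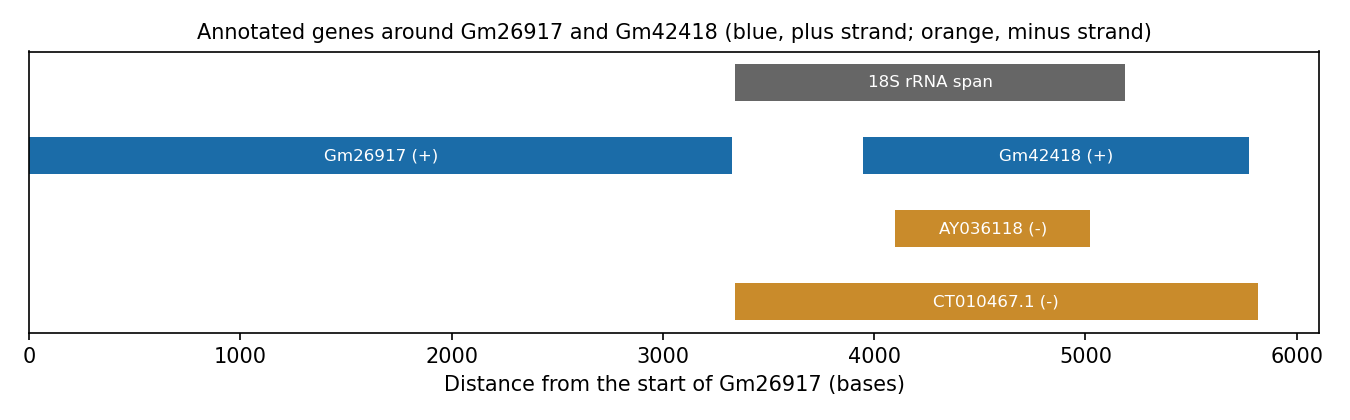
Annotated genes by distance from the start of Gm26917, in bases; blue bars are on the plus strand, orange bars on the minus strand, and the grey bar is the span of 18S. Gm26917 ends 11 bases before 18S, and Gm42418 covers the later part of 18S with 587 bases beyond it.

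The GC content was 69.1% for Gm26917 and 60.2% for Gm42418, against a median of 49.2% over 141767 annotated transcripts. Gm26917 lies at percentile 99.8 of that range and Gm42418 at percentile 94.9. Of the 3296 windows of 34 bases (the read length) in Gm26917, 0 occurred in any other annotated transcript. Of the 1798 windows of Gm42418, 1726 (96.0%) occurred on the opposite strand in CT010467.1. That gene covers the same bases of the genome, so this match followed from the annotation and shows no second place for reads. The comparison covered annotated transcripts only, and copies elsewhere in the genome were not searched. Since reads that mapped to more than 1 place were dropped, the counts measure reads with a single place in the assembly and not the total amount of ribosomal RNA.

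The strand setting of the counting is not given in the sources used here. CT010467.1 covers Gm42418 in full, yet over the 16 libraries Gm42418 had 3890510 UMIs and CT010467.1 had 38256, so the opposite strands were counted apart. AY036118 had 0 UMIs in all 16 libraries. It lies within CT010467.1 on the same strand, and how reads in both genes were counted is not given. Its 0 is therefore not read as absence, and the counts of CT010467.1 may lack reads from that stretch. The plus-strand UMIs of Gm42418 run in the sense of 18S. The first 605 bases of 18S lie in no annotated plus-strand gene, and reads from them are not in these counts.

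Total UMIs on genes ran from 17728081 to 21211537 in fRIP IP, from 13627606 to 15381686 in fRIP input, from 14218784 to 17281596 in UV IP and from 12456298 to 13828610 in UV input. At this depth the widest 95% interval (Clopper-Pearson, counting error only) of the share of a single locus spans 0.0430 percentage points. Of 9 mESC markers, 8 had a median of 10 CPM (UMIs of a gene scaled to a common library total) or more. Sox2 itself was at 0 UMIs in all 16 libraries, for a cause that was not tested. The paper's western blots detected Sox2 protein in crosslinked mESC, so this 0 is not read as absence. Markers of differentiated lineages summed to at most 10.9 CPM and fibroblast markers to at most 3.30 CPM. The fRIP arm held both libraries that stood apart. Rn7sk made up 2.79% of the fRIP input of replicate 4, and the fRIP IP of replicate 5 had the highest share of both large loci among the fRIP libraries.

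Gm26917 was the most abundant gene in all 16 libraries. In UV input it took 12.2%, 12.3%, 12.3% and 12.03% of the UMIs in replicates 3, 4, 5 and 6. In UV IP it took 21.9%, 22.3%, 19.2% and 18.4%. All UV IP libraries were above all UV inputs, and the inputs were nearly equal.

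In fRIP input, Gm26917 took 6.12%, 5.46%, 8.49% and 6.10% of the UMIs in the same order of replicates. In fRIP IP it took 6.29%, 5.44%, 12.4% and 6.81%. The fRIP groups overlapped, and replicate 5 was the highest in both. The group means were 20.4% ± 1.97 (SD, n = 4) in UV IP, 12.2% ± 0.125 in UV input, 7.74% ± 3.17 in fRIP IP and 6.54% ± 1.34 in fRIP input. In that order UV IP did not overlap UV input, while UV input and fRIP IP overlapped through replicate 5 and the fRIP groups overlapped each other.

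Gm42418 ranked 2 or 3 in every library. In UV input it took 1.72%, 1.69%, 1.72% and 1.64% of the UMIs in replicates 3, 4, 5 and 6. In UV IP it took 2.11%, 2.36%, 2.20% and 2.10%. As with Gm26917, all UV IP libraries were above all UV inputs, but the gap was smaller.

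In fRIP input Gm42418 took 1.16%, 1.03%, 1.51% and 1.14% of the UMIs, and in fRIP IP 0.977%, 0.884%, 1.94% and 1.01%. The means were 2.19% ± 0.120 (SD, n = 4) in UV IP, 1.69% ± 0.0394 in UV input, 1.21% ± 0.206 in fRIP input and 1.20% ± 0.492 in fRIP IP. The fRIP groups overlapped, and replicate 5 was again the highest in both. UV input lay above all 4 fRIP inputs, but the fRIP IP of replicate 5 exceeded the UV inputs.

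**Figure D2:**
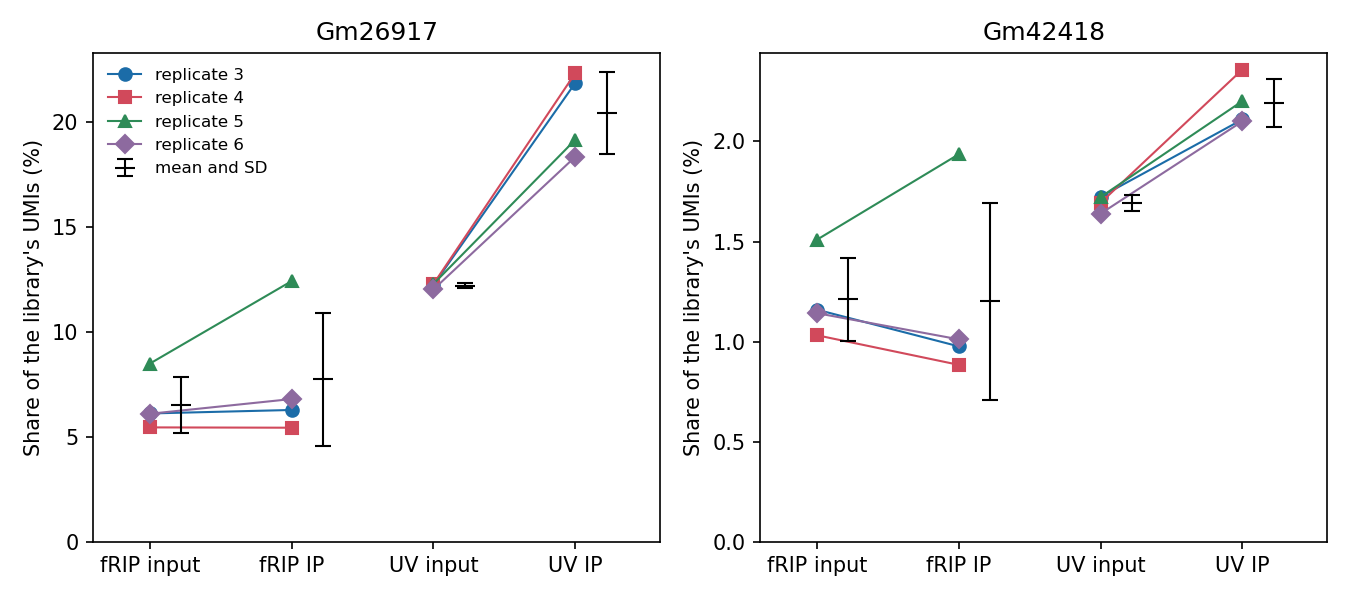
Share of each library's UMIs (%) taken by Gm26917 (left) and Gm42418 (right) in the 4 groups; points are libraries, lines join the input and IP of a plate, and bars give the mean and SD of 4 libraries. Both loci rise from UV input to UV IP on every plate, whereas in fRIP replicate 5 lies apart from replicates 3, 4 and 6.

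No other gene approached Gm26917. The next gene after the large loci was Malat1 in UV IP, a nuclear noncoding RNA, with 0.326% ± 0.0223 of the UMIs (SD, n = 4). In UV input it was mt-Co1, a mitochondrially encoded oxidase subunit, with 0.592% ± 0.0436. In fRIP it was Rn7sk, the RNA that holds P-TEFb inactive, with 0.396% ± 0.100 in the IP and 1.03% ± 1.18 in the input, where replicate 4 set the spread. Per kilobase, the level of Gm26917 in CPM exceeded that of Gm42418 by 3.54-fold in fRIP IP, 2.96-fold in fRIP input, 5.13-fold in UV IP and 3.97-fold in UV input.

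To ask whether the IP held more of each locus than its own lysate, IP and input of the same plate were compared. In UV-RIP the share of Gm26917 in the IP was 1.79-fold, 1.82-fold, 1.56-fold and 1.53-fold that of the input in replicates 3 to 6. The share of Gm42418 was 1.22-fold, 1.39-fold, 1.28-fold and 1.28-fold that of the input. Both loci were higher in the IP on 4 of 4 plates, and the mean log2 ratio was 0.74 ± 0.13 (SD, n = 4) for Gm26917 and 0.37 ± 0.08 for Gm42418. In edgeR the fitted log2 fold changes were 0.74 (SE 0.026) and 0.37 (SE 0.030).

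The fRIP libraries were not used to pick the loci, so their IP was tested against input. The log2 ratio of Gm26917 was 0.04, -0.004, 0.55 and 0.16 in replicates 3, 4, 5 and 6, that is, higher in the IP on 3 of 4 plates. That of Gm42418 was -0.25, -0.22, 0.36 and -0.18, higher in the IP on 1 of 4 plates. The fitted log2 fold change was 0.18 (SE 0.08) for Gm26917, with an adjusted p of 0.0588 (edgeR quasi-likelihood, Benjamini-Hochberg). For Gm42418 it was -0.07 (SE 0.08), with an adjusted p of 0.555. Neither passed the adjusted threshold of 0.05, and before adjustment p was 0.0237 and 0.393 by the same edgeR test. By an exact 2-sided sign-flip permutation test over the 4 pairs, p was 0.25 for Gm26917 and 0.625 for Gm42418, where 0.125 is the smallest p that 4 pairs allow.

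From the SE of the fit, the 95% interval of the fRIP log2 fold change was 0.04 to 0.33 for Gm26917. For Gm42418 it was -0.24 to 0.09, and both intervals were short of the 1.5-fold used for calls. The log2 ratios of the plates had an SD of 0.25 for Gm26917 and 0.29 for Gm42418 (n = 4). The intervals do not take in all of this spread, so they set no firm bound on the change. Replicate 5 weighed on both loci. Without it the log2 fold change of Gm26917 was 0.06 (adjusted p = 0.420, edgeR), and that of Gm42418 was -0.22 (adjusted p = 0.0102, edgeR). Without replicate 4 that of Gm26917 was 0.25 (adjusted p = 5.03e-24, edgeR). The plates left had log2 ratios of 0.04, 0.55 and 0.16, so this p does not reflect the spread between plates. Over the 11 alternatives run, the adjusted p of Gm26917 lay between 5.03e-24 and 0.420 and was below 0.05 in 4, while the log2 fold change stayed between 0.06 and 0.25.

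**Figure D3:**
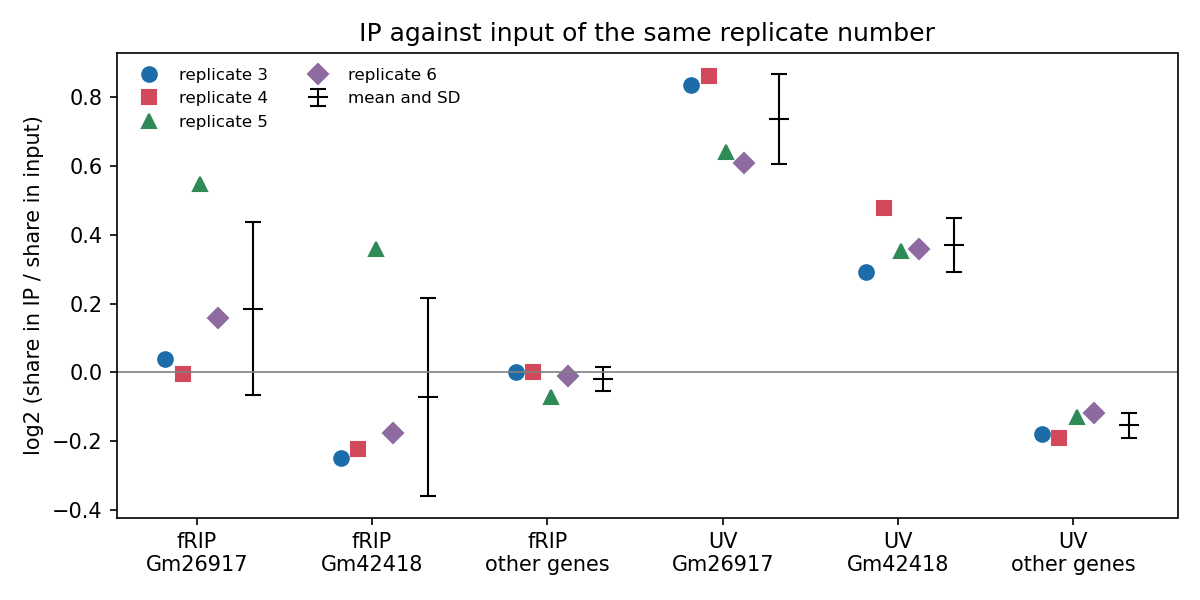
Log2 ratio of the share in the IP to the share in the input of the same plate, for each locus and for all other genes together; symbols are replicates and bars give the mean and SD of 4 plates. Gm26917 and Gm42418 lie above 0 on all UV plates, and the other genes lie below 0 by the amount the loci took.

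Because the shares of a library add up, what the loci took was missing elsewhere. The 3 loci together held between 20.5% and 24.7% of the UMIs in UV IP and between 13.7% and 14.02% in UV input. The summed share of all other genes was therefore lower in the UV IP, by a log2 ratio between -0.19 and -0.12 with a mean of -0.15. In fRIP the same ratio lay between -0.07, in replicate 5, and 0.003, with a mean of -0.02. With total UMIs as library size, over the 22936 genes tested in UV-RIP the log2 fold change had its median at -0.17, which was -0.02 when the 3 loci were left out of the library sizes.

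The loci did not move by the same factor. Gm42418 UMIs per 100 Gm26917 UMIs were 18.95, 18.9, 17.8 and 18.7 in fRIP input and 15.5, 16.3, 15.6 and 14.9 in fRIP IP, for replicates 3, 4, 5 and 6. They were 14.1, 13.8, 14.01 and 13.6 in UV input and 9.64, 10.6, 11.5 and 11.4 in UV IP. None of the 4 groups overlapped, and the 18S-containing locus was lower relative to the spacer locus in the IP on all 8 plates. Replicate 5, which lay apart in the shares, was within the range of the others in fRIP IP. In fRIP input it was the lowest, at 17.8 against 18.7 to 18.95.

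The log2 ratio of Gm42418 to Gm26917 was lower in the IP than in the input, with differences from -0.33 to -0.19 over the fRIP plates and from -0.54 to -0.25 over the UV plates. In fRIP the mean difference was -0.26 ± 0.06 (SD, n = 4), with a p of 0.125 by the exact 2-sided sign-flip permutation test, the smallest that 4 pairs allow. Between the inputs, which saw no antibody, the ratio was higher in fRIP than in UV by 0.42 on the log2 scale, with a p of 0.0286 by the exact 2-sided permutation test over 70 arrangements, the smallest it can give. These were the only tests of the ratio, and the Benjamini-Hochberg adjusted p was 0.0571 between the inputs and 0.125 in fRIP. Crosslinker and anything else that differed between the arms cannot be told apart.

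**Figure D4:**
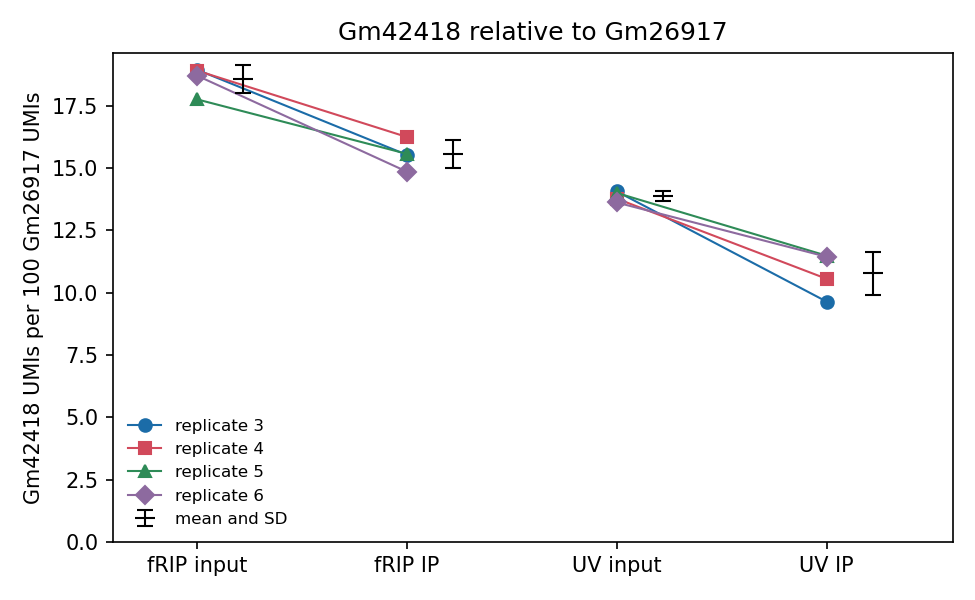
Gm42418 UMIs per 100 Gm26917 UMIs in each library by group; lines join the input and IP of a plate, and bars give the mean and SD of 4 libraries. The ratio falls from input to IP on all 8 plates, and the fRIP inputs lie above all other groups.

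The minus-strand gene CT010467.1, antisense to 18S, was present at a small fraction of Gm42418. In UV-RIP it had 95.9, 108, 92.7 and 104 CPM in the inputs and 170, 205, 239 and 212 CPM in the IPs of replicates 3, 4, 5 and 6. It was enriched in the UV IP, with a log2 fold change of 1.04 (SE 0.04, adjusted p = 1.39e-130, edgeR) and higher values on 4 of 4 plates. Over all genes tested, 0.68% were enriched in UV-RIP. Per 100 UMIs of Gm42418 there were 0.592 ± 0.0519 UMIs of CT010467.1 in UV input and 0.942 ± 0.127 in UV IP (SD, n = 4).

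In fRIP, CT010467.1 had 73.7, 247, 94.6 and 46.1 CPM in the inputs and 97.2, 66.8, 399 and 104 CPM in the IPs. The IP of replicate 5 and the input of replicate 4 stood far above the others, and the groups overlapped. The log2 fold change was 0.49 (SE 0.34, adjusted p = 0.280, edgeR), against 8.8% of all genes tested that were enriched in fRIP. Without replicate 4 it was 1.26 and past the threshold (adjusted p = 9.75e-103, edgeR). The plates left rose unevenly, from 73.7 to 97.2, from 94.6 to 399 and from 46.1 to 104 CPM. That p does not reflect this spread between plates. How far reads of Gm42418 counted on the wrong strand add to these values was not tested.

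n-R5-8s1 (ENSMUSG00000065922.1) lies on the minus strand of chromosome 18, from 73533403 to 73533550, and is 148 bases long. It was nearly absent and held 11 UMIs over the 4 fRIP IP libraries, 15 over UV IP and 10 over UV input. The fRIP inputs of replicates 3, 4, 5 and 6 held 0, 142, 1 and 2 UMIs. A single library, the fRIP input of replicate 4, thus carried most of its UMIs. The fitted fRIP log2 fold change of -3.55 turned to 1.23 without replicate 4, so no direction is given. In the UV libraries it had between 0 and 6 UMIs, and a count of 0 allows up to 3.

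Other genes annotated as ribosomal RNA were at or near 0. Of 354 such genes, 43 had any UMI, and CT010467.1 and n-R5-8s1 were the only ones with a mean of 10 UMIs or more. The largest mean of the rest was 1.81 UMIs per library. Gm23935, annotated as a miRNA on chromosome 16 and listed here among ribosomal RNA related loci, was depleted in the IP in both arms, with log2 fold changes of -1.44 (SE 0.21, adjusted p = 4.92e-06, edgeR) under formaldehyde and -1.03 under UV (SE 0.05, adjusted p = 1.77e-82, edgeR). It was lower in the IP on all 8 plates, the opposite of CT010467.1 and Gm26917 in UV-RIP. Lars2, the mitochondrial leucyl-tRNA synthetase, and Gm15564 passed the test in neither arm, at -0.17 and 0.19 on the log2 scale in fRIP and 0.03 and 0.06 in UV-RIP.

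Messenger RNAs for proteins that make and process ribosomal RNA were compared between IP and input as a list. Of 15 genes for RNA polymerase I and its initiation factors and 35 for nucleolar processing proteins, 0 were enriched in either arm, by edgeR and by DESeq2, against 8.8% of all genes tested in fRIP and 0.68% in UV-RIP. With so small a share in UV-RIP, a count of 0 there says nothing particular about the list. At an unadjusted p below 0.05 and any fold, 7 were higher in the fRIP IP and 6 in the UV IP by edgeR, and 0 of them exceeded 1.5-fold. The share of all genes at this looser threshold is not given here, so these counts are not read as a result about the list. In fRIP 14 of the 50 (28%) were depleted, against 10.7% of all genes tested. In UV-RIP 8 (16%) were depleted, against 5.53% of all genes, and with the 3 loci left out of the library sizes 2 were, against 2.2%. The median log2 fold change of the 50 was -0.38 in fRIP, against -0.03 over all genes tested, and -0.27 in UV-RIP, against -0.17.

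Among the 15 polymerase I genes, 4 (26.7%) were depleted in fRIP and 3 (20%) in UV-RIP, against 10.7% and 5.53% of all genes tested. Znrd1, a polymerase I subunit, changed by -1.17 on the log2 scale in fRIP (SE 0.10) and by -0.61 in UV-RIP (SE 0.09). Twistnb, another subunit, had -0.82 (SE 0.09) and -0.85 (SE 0.06), and Taf1d, a subunit of the promoter selectivity factor, had -0.64 (SE 0.08) and -0.67 (SE 0.04). These 3 were lower in the IP on all 8 plates. The UV calls of Znrd1 and Taf1d were lost when the loci were left out of the library sizes. Polr1a, the largest subunit, had fitted log2 values of 0.004 in fRIP and -0.02 in UV-RIP. Ubtf, which opens the ribosomal DNA for transcription, was higher in the IP on all 8 plates by 0.28 (adjusted p = 0.00254, edgeR) and 0.31 (adjusted p = 1.8e-14, edgeR), short of the 1.5-fold for a call.

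Among the 35 processing genes, 10 (28.6%) were depleted in fRIP and 5 (14.3%) in UV-RIP, against 10.7% and 5.53% of all genes tested. Nop10, a core protein of the RNPs that pseudouridylate ribosomal RNA, had 26.0, 45.4, 35.1 and 25.2 CPM in the fRIP inputs and 10.2, 14.3, 11.3 and 11.0 CPM in the fRIP IPs. Its fitted log2 change was -1.47 in fRIP (SE 0.10) and -0.89 in UV-RIP (SE 0.08). The abundant nucleolar proteins Npm1, with -1.13 and -0.65, and Ncl, with -0.93 and -0.59, were depleted in both arms. Fbl, the methyltransferase of the box C/D RNPs, was lower in the IP on all 8 plates by -0.21 and -0.30 but was not called. With the 3 loci left out of the library sizes, the UV values of Npm1 (-0.50), Ncl (-0.43), Znrd1 (-0.46) and Taf1d (-0.52) were short of 1.5-fold. With total UMIs, Znrd1 was also short of it without replicate 3 (-0.58) or 5 (-0.51), and Ncl without replicate 3 (-0.58) or 4 (-0.53) and without the replicate block (-0.58).

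**Figure D5:**
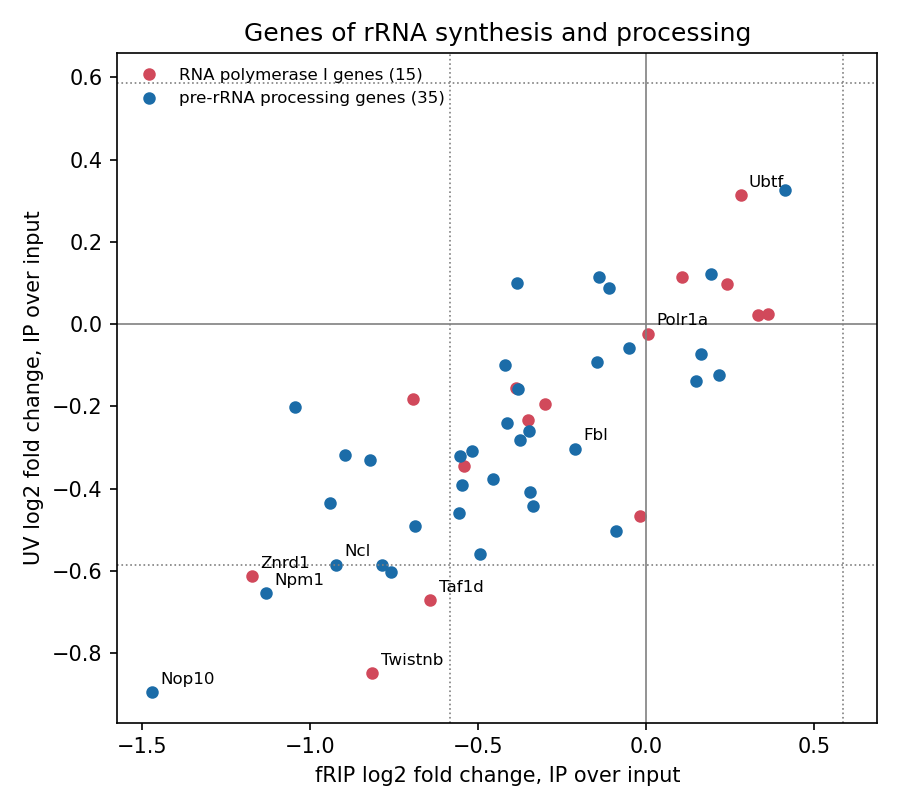
Log2 fold change of IP over input in fRIP (horizontal) and UV-RIP (vertical) for 15 RNA polymerase I genes (red) and 35 processing genes (blue); dotted lines mark the 1.5-fold of a call. No gene passes it upwards in either arm, where the enriched share of all genes was 8.8% in fRIP and 0.68% in UV-RIP, and 8 pass it downwards in both, where 10.7% and 5.53% were depleted, namely Nop10, Npm1, Znrd1, Twistnb, Taf1d, Ncl, Mphosph10 and Snu13.

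Of 13 small RNAs that act on the precursor, 2 had enough UMIs to be tested. Snord118 (U8), needed to mature the large subunit RNAs, had 9, 91, 28 and 13 UMIs in the fRIP inputs and 15, 18, 8 and 23 in the fRIP IPs. Its fRIP log2 fold change was -1.36 (SE 0.40, adjusted p = 0.00768, edgeR), but the IP was lower on 2 of 4 plates, and with replicate 4 left out the value was -0.54 and missed the threshold (adjusted p = 0.155, edgeR). It missed it too without replicate 5 (-1.10, adjusted p = 0.118, edgeR) and by DESeq2 with total UMIs (-1.14, adjusted p = 0.0663) or median of ratios (-1.11, adjusted p = 0.0841). In UV-RIP its log2 value was 0.12 (SE 0.30, adjusted p = 0.832, edgeR). Snord13 (U13), chosen to be named after its values were seen, had a mean of 5.44 UMIs per library and fitted log2 changes of -2.17 under formaldehyde and -1.59 under UV. Rmrp, the RNA of the RNase MRP that cuts the precursor, was at 0 UMIs in all libraries and is annotated as 2 overlapping copies, as are the U3 genes Rnu3a and Rnu3b1 to Rnu3b4.

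Over the 16 libraries, the gene whose log2 level was most like that of Gm26917 was Gm42418, with a Pearson r of 0.96, and 0 of 10206 other genes with a mean of 100 UMIs or more exceeded it. Next to Gm26917 came Tsku, a secreted proteoglycan, with 0.94, the receptor Notch4 with 0.94 and the recombination protein Rad51d with 0.93. Next to Gm42418 came Tsku with 0.91, the glucose transporter Slc2a1 with 0.90 and Rad51d with 0.88. These r are descriptions, since the libraries share 4 groups and their totals.

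The mean level of Tsku, in CPM, was 13.4 in fRIP input, 12.5 in fRIP IP, 19.2 in UV input and 22.3 in UV IP. Notch4 had 20.9, 27.1, 32.4 and 45.3 CPM in the same order. Notch4 had the same order of group means as Gm26917, while Tsku was lower in the fRIP IP than in the fRIP input on 4 of 4 plates. Notch4 was higher in the IP on all 8 plates, by 0.38 on the log2 scale in fRIP (SE 0.10) and 0.48 in UV-RIP (SE 0.05),. These genes were picked on their levels in all libraries, so their values are given without a test.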

How the data were processed

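RNA was measured in 8 IP and 8 input libraries of mESC. The authors mapped paired reads of 34 bases with STAR to mm10 (GRCm38), dropped reads without a unique place, and counted UMIs over the gene bodies of GENCODE vM16 with featureCounts; versions and strand setting are not given in the sources used here. The deposited values are raw UMI counts per gene for 53379 genes, and all deposited columns matched a sample by its title. Identifiers were matched to GENCODE vM21, 50604 with the same version and 2670 without it.

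Genes that reached 3 UMIs in any of the 16 libraries were fitted per crosslinker with edgeR 4.0.16 (quasi-likelihood, R 4.3.3), with total UMIs as library size and the replicate number as a block, because IP and input of a number come from the same plate. The IP and input of a plate deviated together, with correlations of their deviations over genes from 0.11 to 0.60 in fRIP and from 0.03 to 0.44 in UV-RIP. A call needed more than 1.5-fold and an adjusted p (Benjamini-Hochberg) below 0.05 over all 22936 genes tested, as in the study's design. The study used DESeq2, which is an alternative here (version 1.42.0). Intervals of fold changes are approximate and come from the SE. Shares are UMIs of a gene over all UMIs on genes, per-kilobase values divide CPM by the deposited gene length, and exact tests used Python 3.11.15 with scipy 1.17.1. The chi-square of counts between any 2 replicates was at least 1.52 times its degrees of freedom, above sampling noise, so none was counted as a repeat of another. The fits were tested on simulated data.

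The loci, gene lists and tests were chosen with earlier results of these data known. Named genes are the 3 loci; the next most abundant gene of each group; ribosomal RNA related genes, annotated ribosomal RNA genes and genes within 20 kb with a mean of 10 UMIs or more; from the lists on synthesis and processing, the genes with the largest calls and Polr1a, Ubtf, Ncl, Npm1, Fbl, Rmrp and Snord118; and the 3 genes with a mean of 100 UMIs or more whose log2(CPM + 0.5) correlated most with each large locus. Alternatives were TMM scaling, library sizes without the loci, DESeq2 with total UMIs or median of ratios, no count filter or 10 UMIs in 4 libraries, no block, each replicate left out, and shares without mitochondrially encoded genes in the total.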

Additional observations from a re-analysis of the deposited data

Results flagged for a closer look

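Over 36 groups of 4 libraries, 5 values lay apart from the other 3 libraries by Dixon's criterion, all of them in the fRIP arm. Chance meets this criterion in about 1 in 20 groups. Most of the values came from the fRIP IP of replicate 5, so they are not independent and their number is not set against chance. The IP of replicate 5 had 1.94% of its UMIs on Gm42418, against 0.884% to 1.01% in the other fRIP IPs, and its log2 IP to input ratio of Gm42418 was 0.36, against -0.25 to -0.18. The same library had 399 CPM of CT010467.1, against 66.8 to 104 in the others, and 86.5 CPM of Gm23935, against 18.9 to 28.0. The fRIP input of replicate 4 had 142 UMIs of n-R5-8s1, against 0 to 2 in the other fRIP inputs.

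Tsku was higher in the IP than in the input on every UV plate and lower on every fRIP plate. Its log2 fold change was 0.21 in UV-RIP and -0.09 in fRIP, a difference of 0.31 that was not tested.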

How the results depend on the processing

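The log2 fold change of Gm26917 in fRIP was 0.18 and not past an adjusted p of 0.05, which it passed at 0.23 under TMM scaling, at 0.20 with library sizes without the loci and at 0.18 with no count filter. Leaving out each replicate gave 0.064 to 0.25, and no alternative reached 1.5-fold. That of Gm42418 in fRIP lay between -0.22 and -0.013 with each replicate left out. That of n-R5-8s1 in fRIP, -3.55, reversed to 0.14 with DESeq2 and total UMIs and to 0.19 with DESeq2 and median of ratios, and lay between -4.42 and 1.23 with each replicate left out.

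In UV-RIP, Gm26917 moved from 0.74 to 0.92 under TMM scaling, 0.89 without the loci in the library sizes and 0.91 with DESeq2 and median of ratios. Gm42418 moved from 0.37 to 0.55, 0.52 and 0.54 under the same settings. Depleted genes of ribosomal RNA synthesis and processing in UV-RIP fell from 8 to 2 under each of these settings, and lay between 4 and 8 with each replicate left out, 4 without replicate 3 and 5 without replicate 4. Over all genes, 156 enriched and 1268 depleted in UV-RIP became 505 and 425 under TMM scaling, 419 and 505 without the loci in the library sizes, 288 and 235 with DESeq2 and median of ratios, and 78 and 882 with DESeq2 and total UMIs.

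The ratio of the large loci between the inputs, 0.42, lay between 0.41 and 0.45 with each replicate left out, where 3 against 3 libraries cannot go below a p of 0.1 in the exact permutation test. In UV input the share of Gm26917 was 12.2%, and 12.4% without mitochondrially encoded genes in the total. Without the replicate block the fRIP log2 fold changes were 0.24 for Gm26917 and -0.01 for Gm42418, and 6 of the 50 genes were depleted in UV-RIP, Ncl no longer among them. Among the loci and the genes named by the stated rule, it changed no other call. Mphosph10, Snu13 and Snord13, named outside that rule, were not followed gene by gene. The cause of these changes was not tested, except that the library sizes without the loci leave out only their UMIs. Uniquely mapped reads of 34 bases limit what is seen of repeated ribosomal RNA.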
